A study of Rattus norvegicus with 16 samples.

Results

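Phagocytes make superoxide with the NADPH oxidase of the Nox2 type and remove it, and the peroxide formed from it, with a second set of enzymes. The transcripts of 9 such genes were described here, 5 of the oxidase (Cybb, Cyba, Ncf1, Ncf4 and Rac2) and 4 of antioxidant defence (Sod2, Cat, Prdx1 and Nqo1). They were picked by gene symbol from 20667 symbols on 23188 transcript clusters, and each of the 9 had 1 cluster. All samples came from male Lewis rats without a stated treatment, and the sources used here give no age. Cells negative for propidium iodide and positive for CD45 were sorted from thymus and from spleen into 4 populations. A CD103- population resembling dendritic cells was taken as MHC class II+, CD45R- and CD172a+, and is called CD103- cells here. Macrophages were taken as CD45R- and positive for HIS36, an antibody against the scavenger receptor Cd163. Conventional dendritic cells were MHC class II+ and CD103+, with CD172a marking type 2 (cDC2) and its lack marking type 1 (cDC1). Below, dendritic groups, populations and arrays are all those other than macrophages. CD103- cells are included there by their label, which does not settle their cell type, and their monocyte markers are given below. Each of the 8 groups was read on 2 Clariom S rat arrays, 16 in all, and values are log2 signals as deposited.

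Before the sort, splenic dendritic cells were enriched by density, thymic ones with beads against MHC class II, and macrophages of both organs with beads against CD11b/c, so organ and macrophage comparisons also carry a difference in enrichment. The labels did not say whether 2 arrays of a group came from separate animals or pools, so a p-value here reflects the spread between arrays, which may be technical. In RNA of a sorted population, fewer expressing cells and less RNA per cell cannot be told apart. The sort markers followed the gates. Itgae, which encodes CD103, averaged 6.02 and 7.93 in thymic and splenic CD103- cells, against 13.66 and 13.27 in cDC2. Sirpa, which encodes CD172a, lay between 17.68 and 18.74 on the arrays of CD103- cells, macrophages and cDC2 and between 7.76 and 9.87 on those of cDC1. Cd163 averaged 16.56 and 15.98 in thymic and splenic macrophages. Levels below 5.73, the 95th percentile of the group means of 1160 olfactory receptor clusters, are called background.

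The macrophage arrays also held transcripts of other cells, and these values belong beside every macrophage result that follows. S100a9, a calcium-binding protein abundant in neutrophils, averaged 18.03 in thymic and 17.38 in splenic macrophages, and Ngp, a neutrophil granule protein, 16.04 and 14.86. In the 6 dendritic groups S100a9 averaged between 5.02 and 6.08 and Ngp between 3.68 and 4.23. Of 10 neutrophil markers, 8 lay above background in thymic and 7 in splenic macrophages, with a log2 summed signal of 18.75 to 19.36 and 18.07 to 18.35, against 0 to 4 markers and 7.72 to 11.51 in the dendritic groups. Elane and Ltf stayed below background in all groups, and Mpo reached at most 5.95, in thymic macrophages. Hbb, the haemoglobin beta chain, averaged 6.58 in thymic macrophages and 17.90 in splenic macrophages, and 8 of 10 erythroid markers were above background in splenic against 3 in thymic macrophages. Xcr1, which defines cDC1, averaged 10.26 and 11.54 in thymic and splenic macrophages. The 6 cDC1 markers had a log2 summed signal of 12.79 to 12.99 and 13.65 to 13.86 there. In thymic and splenic CD103- cells it was 12.25 to 12.53 and 13.23 to 13.58. Against cDC2 of thymus and spleen, macrophages were higher for Clec9a by 2.315 and 1.17, and lower for Cadm1 by -3.075 and -1.445. The part of these transcripts in the results was not tested.

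**Figure D1:**
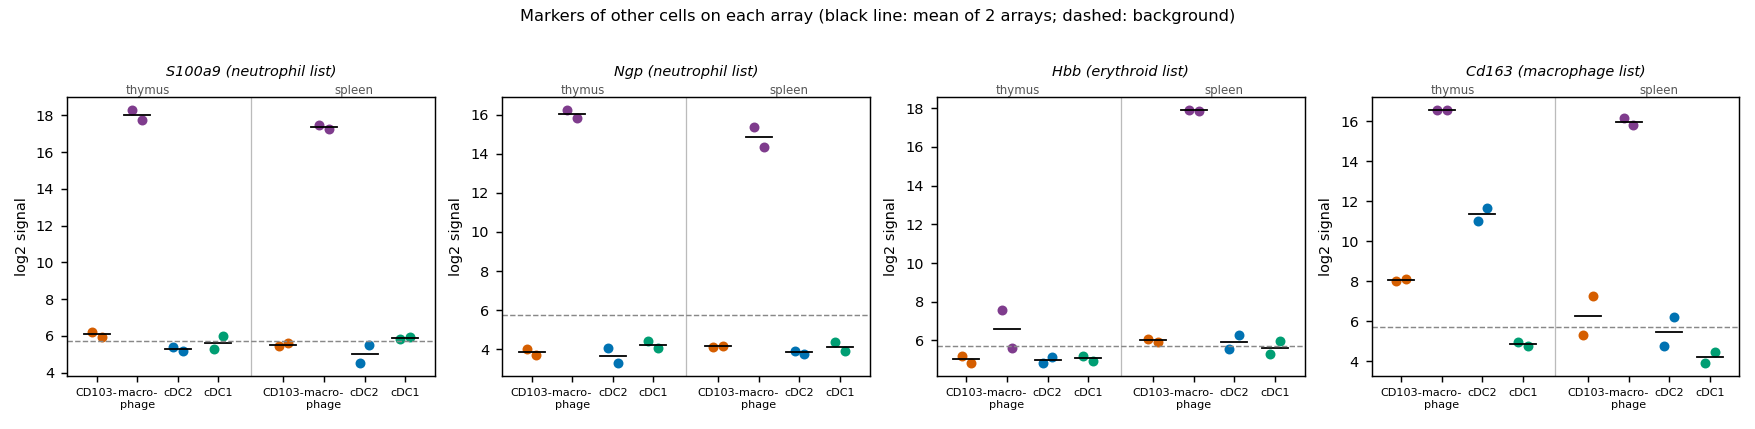
Log2 signal of 2 neutrophil markers, 1 erythroid marker and the sorted macrophage marker on each of the 16 arrays, by group, with the mean of each group as a black line and background dashed at 5.73. S100a9 and Ngp stand high on the 4 macrophage arrays, and Hbb stands high on the 2 arrays of splenic macrophages.

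The oxidase has a membrane core made of gp91phox (Cybb), the subunit that passes electrons from NADPH to oxygen, and its partner p22phox (Cyba). It is switched on when cytosolic subunits, among them p47phox (Ncf1, the organizer) and p40phox (Ncf4, which binds phosphoinositides), move to the membrane with a Rac GTPase, mainly Rac2 in blood cells. In phagocytes the superoxide serves to kill microbes, and in dendritic cells it also slows the acidification of phagosomes and the breakdown of antigen there. Mitochondrial superoxide dismutase (Sod2) turns superoxide into hydrogen peroxide, catalase (Cat) and peroxiredoxin 1 (Prdx1) break peroxide down, and the quinone reductase Nqo1 is a classical target of the transcription factor Nrf2.

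Promoters are shown for 4 of the genes. Cybb and Sod2 are shown because they gave the largest differences between CD103- cells and cDC2, and Cyba and Prdx1 because their levels followed each other most closely. Each window holds the 250 bases before the gene's start in RefSeq on the GRCr8 assembly, read 5′ to 3′ on the gene's strand. They lie at chrX:16065066-16065315 (minus strand) for Cybb, chr1:50050169-50050418 (minus strand) for Sod2, chr19:67404215-67404464 (minus strand) for Cyba and chr5:135383656-135383905 (plus strand) for Prdx1. Capitals mark a match, on either strand, to GAGGAA, the core bound by ETS factors such as PU.1, or to TGACNNNGC, the core of the antioxidant response element bound by Nrf2.
Cybb: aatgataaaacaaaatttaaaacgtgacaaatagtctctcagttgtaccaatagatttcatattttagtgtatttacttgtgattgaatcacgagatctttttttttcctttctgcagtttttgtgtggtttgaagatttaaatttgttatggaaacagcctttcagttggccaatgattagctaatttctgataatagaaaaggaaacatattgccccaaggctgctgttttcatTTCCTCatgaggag
Sod2: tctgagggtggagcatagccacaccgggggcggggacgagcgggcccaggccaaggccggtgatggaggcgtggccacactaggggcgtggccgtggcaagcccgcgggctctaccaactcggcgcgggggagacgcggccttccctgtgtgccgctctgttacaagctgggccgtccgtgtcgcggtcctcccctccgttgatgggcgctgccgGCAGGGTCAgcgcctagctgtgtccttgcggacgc
Cyba: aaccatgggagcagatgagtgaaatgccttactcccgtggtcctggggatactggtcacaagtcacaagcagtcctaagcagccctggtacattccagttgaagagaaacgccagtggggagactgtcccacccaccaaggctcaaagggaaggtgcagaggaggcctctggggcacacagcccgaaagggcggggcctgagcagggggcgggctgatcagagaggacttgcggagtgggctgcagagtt
Prdx1: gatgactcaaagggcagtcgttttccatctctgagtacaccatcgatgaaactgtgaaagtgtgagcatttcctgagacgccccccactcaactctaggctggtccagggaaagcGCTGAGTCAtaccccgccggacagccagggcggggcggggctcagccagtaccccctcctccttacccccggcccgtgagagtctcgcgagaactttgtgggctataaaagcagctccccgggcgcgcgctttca
The match in Cybb reads TTCCTC because the ETS core lies on the opposite strand, 14 to 9 bases before the start. Sod2 holds the antioxidant core 35 to 27 bases and Prdx1 135 to 127 bases before the start, both on the opposite strand. No match to either motif is in the Cyba window. RefSeq's table held 7 of the 9 genes. Of these, Cybb and Cat held GAGGAA, which 23.341% of 33469 promoters hold, and Ncf1, Sod2 and Prdx1 held TGACNNNGC, which 10.078% hold. The matches of the motifs lay in different genes and did not overlap. They describe letters in these windows only.

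Cybb, the catalytic subunit, was high in CD103- cells and macrophages of both organs, lower in cDC2 and lowest in cDC1. In the thymus its level was 17.67 and 17.73 in CD103- cells, 17.71 and 17.95 in macrophages, 15.13 and 15.46 in cDC2, and 12.92 and 11.15 in cDC1. In the spleen it was 17.88 and 17.90 in CD103- cells, 17.20 and 17.14 in macrophages, 13.07 and 14.13 in cDC2, and 8.90 and 10.60 in cDC1. No array of CD103- cells or macrophages overlapped with one of cDC2 or cDC1 in either organ, and the arrays of cDC1 differed most among themselves. Against cDC2, CD103- cells were higher by 2.41 ± 0.50 (SE) in the thymus (5.30-fold, adjusted p = 0.00317) and by 4.29 ± 0.50 in the spleen (19.6-fold, adjusted p = 9.93e-06). The difference between the organs, -1.89 ± 0.70 (thymus minus spleen), did not pass the test (adjusted p = 0.196). Against macrophages, CD103- cells differed by -0.13 ± 0.50 in the thymus and 0.72 ± 0.50 in the spleen; neither difference passed (adjusted p = 0.875 and 0.273). cDC2 exceeded cDC1 by 3.26 ± 0.50 in the thymus and 3.85 ± 0.50 in the spleen (adjusted p = 0.000116 and 1.58e-05). On the thymic cDC1 arrays with 12.92 and 11.15 for Cybb, Sirpa read 9.87 and 8.26, and on the splenic ones with 8.90 and 10.60 it read 9.36 and 7.76.

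Of 7 monocyte markers, 6 and 7 lay above background in thymic and splenic CD103- cells, with a log2 summed signal of 18.39 to 18.80 and 18.28 to 18.32. In cDC2 they were 6 and 5, with 13.85 to 14.12 in the thymus and 12.90 to 13.74 in the spleen. Cd14 averaged 15.61 and 14.70 in thymic and splenic CD103- cells, against 9.70 and 5.88 in cDC2. Fcnb and Ccr2 were likewise higher in CD103- cells than in cDC2 of both organs. S100a4 was not, at 12.45 in CD103- cells and 12.44 in cDC2 of the thymus, and thymic Vcan lay below background in both. In macrophages, 6 and 7 of the 7 lay above background, with a summed signal of 15.24 to 15.78 in the thymus and 17.01 to 17.46 in the spleen. In cDC1, 5 and 4 did, with 11.88 to 11.89 in the thymus and 10.32 to 12.07 in the spleen. The part of the markers that moved with Cybb was not tested.

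Cyba, whose protein stabilizes gp91phox, stood apart in the macrophages of both organs. In the thymus it read 12.50 and 12.53 in CD103- cells, 15.39 and 15.40 in macrophages, 11.83 and 12.12 in cDC2, and 12.69 and 12.48 in cDC1. In the spleen it read 11.35 and 11.72 in CD103- cells, 15.65 and 15.57 in macrophages, 11.64 and 11.55 in cDC2, and 12.43 and 11.30 in cDC1. Every macrophage array lay above every dendritic array, while the dendritic groups of the spleen overlapped. CD103- cells fell below macrophages by 2.88 ± 0.28 in the thymus and by 4.08 ± 0.28 in the spleen (adjusted p = 2.11e-07 and 2.99e-09). Against cDC2 they differed by 0.54 ± 0.28 and -0.06 ± 0.28, and neither passed (adjusted p = 0.304 and 0.949). Between CD103- cells and macrophages, Cyba passed the test in both organs and Cybb in neither. With only the arrays of the groups compared, the splenic difference of Cybb also passed (adjusted p = 0.0263), and with quantile normalization its thymic difference turned to 0.145.

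**Figure D2:**
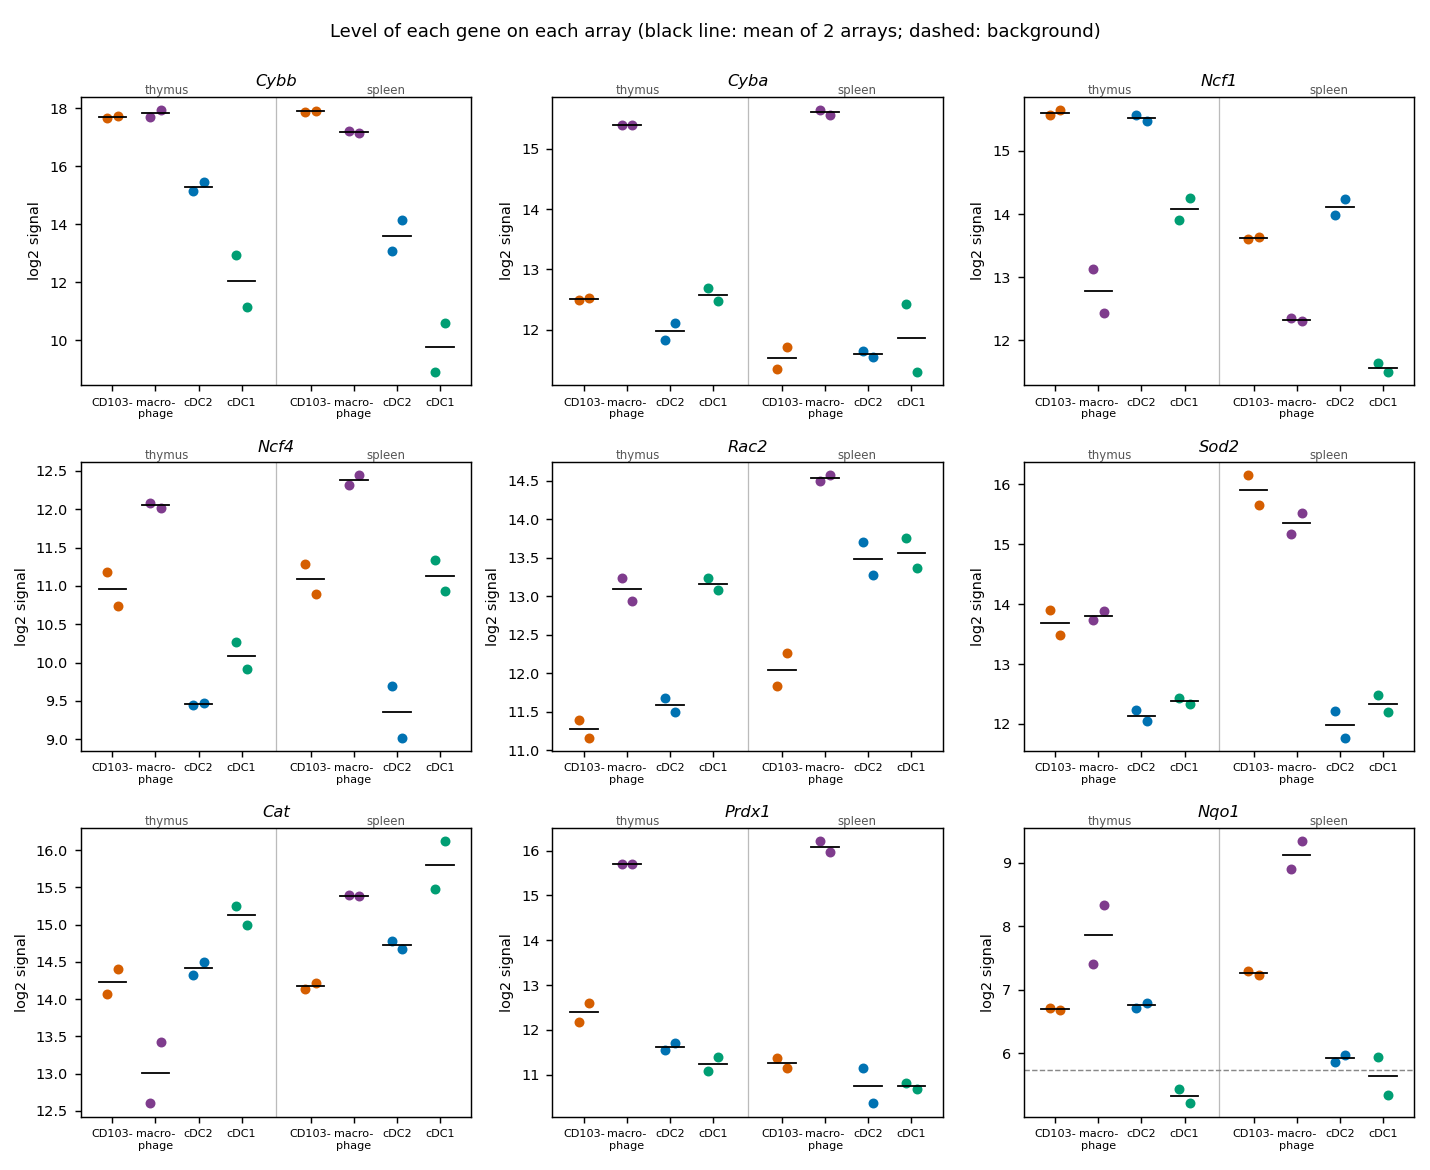
Log2 signal of each of the 9 genes on each array, by group (points: arrays; black line: mean of 2 arrays; dashed in the Nqo1 panel: background). Cybb is high in CD103- cells and macrophages, Cyba and Prdx1 stand apart in macrophages, Ncf1 is lowest in macrophages and splenic cDC1, and Cat in thymic macrophages.

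Among the cytosolic subunits, Ncf1 was higher in CD103- cells than in macrophages of both organs. Its thymic level was 15.56 and 15.65 in CD103- cells, 13.13 and 12.44 in macrophages, 15.56 and 15.47 in cDC2, and 13.90 and 14.25 in cDC1. Its splenic level was 13.60 and 13.64 in CD103- cells, 12.35 and 12.31 in macrophages, 13.98 and 14.24 in cDC2, and 11.64 and 11.50 in cDC1. CD103- cells and cDC2 overlapped in the thymus, and in the spleen both CD103- arrays lay below both cDC2 arrays. Ncf1 was higher in CD103- cells than in macrophages by 2.82 ± 0.24 in the thymus and by 1.29 ± 0.24 in the spleen (adjusted p = 2.73e-08 and 0.000226). cDC2 exceeded cDC1 by 1.44 ± 0.24 and 2.54 ± 0.24 (adjusted p = 0.000244 and 2.73e-07). The gap between CD103- cells and cDC2 was 0.09 ± 0.24 in the thymus and -0.49 ± 0.24 in the spleen; neither difference passed (adjusted p = 0.908 and 0.268). A second cluster, LOC100912379, is described in the file as similar to neutrophil cytosol factor 1, and it ran from 12.06 in thymic CD103- cells to 7.51 in splenic cDC1. Probes of so similar sequences may share targets, so which of both loci the Ncf1 signal comes from is uncertain.

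Ncf4 had its highest level in macrophages and its lowest in cDC2 of both organs. The thymic arrays gave 11.18 and 10.74 in CD103- cells, 12.08 and 12.02 in macrophages, 9.45 and 9.47 in cDC2, and 10.27 and 9.91 in cDC1. The splenic arrays gave 11.28 and 10.90 in CD103- cells, 12.31 and 12.44 in macrophages, 9.69 and 9.02 in cDC2, and 11.34 and 10.93 in cDC1. CD103- cells were apart from cDC2 in both organs, and overlapped with cDC1 in the spleen alone. CD103- cells exceeded cDC2 by 1.50 ± 0.26 in the thymus and 1.74 ± 0.26 in the spleen (adjusted p = 0.000629 and 0.00017). They were below macrophages by -1.09 ± 0.26 and -1.29 ± 0.26 (adjusted p = 0.00239 and 0.000577). Splenic cDC2 were below splenic cDC1 by -1.78 ± 0.26 (adjusted p = 5.91e-05), and the thymic difference of -0.63 ± 0.26 did not pass (adjusted p = 0.137).

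Rac2, the GTPase, was lowest in thymic CD103- cells and thymic cDC2. In the thymus its level was 11.39 and 11.16 in CD103- cells, 13.24 and 12.94 in macrophages, 11.68 and 11.49 in cDC2, and 13.24 and 13.08 in cDC1. In the spleen it was 11.83 and 12.26 in CD103- cells, 14.50 and 14.57 in macrophages, 13.70 and 13.28 in cDC2, and 13.76 and 13.37 in cDC1. Thymic cDC2 lay apart from thymic cDC1, whereas the same populations overlapped in the spleen. CD103- cells were below macrophages by -1.82 ± 0.24 in the thymus and -2.49 ± 0.24 in the spleen (adjusted p = 5.99e-06 and 1.31e-07). They were below cDC2 by -1.45 ± 0.24 in the spleen (adjusted p = 0.000429), and the thymic -0.31 ± 0.24 did not pass (adjusted p = 0.542). Thymic cDC2 were below thymic cDC1 by -1.58 ± 0.24 (adjusted p = 9.79e-05), and the splenic difference of -0.08 ± 0.24 did not pass (adjusted p = 0.903).

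Sod2, the mitochondrial dismutase, was high in CD103- cells and macrophages, and more so in the spleen. In the thymus it read 13.90 and 13.48 in CD103- cells, 13.74 and 13.88 in macrophages, 12.23 and 12.05 in cDC2, and 12.43 and 12.33 in cDC1. In the spleen it read 16.15 and 15.65 in CD103- cells, 15.18 and 15.53 in macrophages, 12.21 and 11.77 in cDC2, and 12.48 and 12.20 in cDC1. No array of CD103- cells or macrophages overlapped with one of cDC2 or cDC1. CD103- cells exceeded cDC2 by 1.55 ± 0.25 in the thymus (2.93-fold, adjusted p = 0.000273) and by 3.91 ± 0.25 in the spleen (15.0-fold, adjusted p = 6.09e-09). The thymic difference was smaller than the splenic one by -2.36 ± 0.35 (adjusted p = 0.000463). Against macrophages the differences were -0.12 ± 0.25 and 0.55 ± 0.25, and neither passed (adjusted p = 0.755 and 0.0895). With quantile normalization the splenic one was 0.92 and passed (adjusted p = 0.00631).

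Cat, catalase, differed between CD103- cells and macrophages in opposite directions in the organs. The thymic level was 14.07 and 14.40 in CD103- cells, 12.60 and 13.43 in macrophages, 14.33 and 14.50 in cDC2, and 15.25 and 15.00 in cDC1. The splenic level was 14.14 and 14.21 in CD103- cells, 15.40 and 15.38 in macrophages, 14.78 and 14.67 in cDC2, and 15.48 and 16.12 in cDC1. Thymic macrophages were below every other group and splenic macrophages above both CD103- arrays. CD103- cells exceeded macrophages by 1.22 ± 0.27 in the thymus (adjusted p = 0.00135) and were below them by -1.22 ± 0.27 in the spleen (adjusted p = 0.0014). The difference between these was 2.44 ± 0.38 (adjusted p = 0.000532). Hbb and Alas2, markers of red cell precursors, moved with Cat between the macrophage groups: Alas2 averaged 4.83 in thymic and 9.79 in splenic macrophages. Between splenic cDC1 and cDC2, Cat and the summed signal of the erythroid markers moved in opposite ways. Cat averaged 15.80 and 14.73 there, and the 10 erythroid markers had a log2 summed signal of 10.94 to 12.09 and 16.38 to 16.93. In each of these groups 3 of the 10 lay above background, and the list medians were 5.09 and 4.82, both below it. Red cells are rich in catalase, and the part of such transcripts was not tested. Within each organ cDC1 had the highest mean, and CD103- cells were below cDC1 by -0.89 ± 0.27 and -1.63 ± 0.27 (adjusted p = 0.0277 and 0.000222). The thymic call was lost without either cDC1 array or the first CD103- array, with values from -1.055 to -0.725 over the arrays left out.

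Prdx1 gave the clearest separation of macrophages from the dendritic groups. In the thymus it was 12.18 and 12.60 in CD103- cells, 15.70 and 15.70 in macrophages, 11.55 and 11.71 in cDC2, and 11.09 and 11.40 in cDC1. In the spleen it was 11.38 and 11.16 in CD103- cells, 16.21 and 15.97 in macrophages, 11.16 and 10.36 in cDC2, and 10.81 and 10.69 in cDC1. All 4 macrophage arrays lay above all 12 dendritic arrays. CD103- cells fell below macrophages by 3.31 ± 0.26 in the thymus and 4.82 ± 0.26 in the spleen (9.92-fold and 28.2-fold, adjusted p = 1.07e-08 and 1.58e-10). Splenic macrophages exceeded splenic cDC2 by 5.33 ± 0.26 (40.2-fold, adjusted p = 1.97e-11). Pearson's r of Prdx1 with Cyba over the 8 group means was 0.98. The cluster of the near-identical Prdx1l1 followed it (r = 0.999), from 15.38 in splenic macrophages to 9.77 in splenic cDC1, so which locus gives the Prdx1 signal is uncertain.

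Nqo1 was the dimmest of the 9 relative to background, so its differences from cDC1 are bounds. In the thymus it was 6.72 and 6.68 in CD103- cells, 7.41 and 8.33 in macrophages, 6.72 and 6.79 in cDC2, and 5.43 and 5.21 in cDC1. In the spleen it was 7.30 and 7.23 in CD103- cells, 8.90 and 9.34 in macrophages, 5.86 and 5.98 in cDC2, and 5.94 and 5.35 in cDC1. The mean of cDC1 was below background in both organs. CD103- cells were below macrophages by -1.17 ± 0.28 in the thymus and -1.86 ± 0.28 in the spleen (adjusted p = 0.00241 and 2.92e-05). Without the second thymic macrophage array the thymic difference was -0.71 and did not pass (adjusted p = 0.0757). CD103- cells exceeded cDC1 by at least 0.97 in the thymus and at least 1.53 in the spleen. The differences as measured were 2.60-fold and 3.07-fold, and the moderated test of these, not of the bounds, gave adjusted p = 0.00132 and 0.000305. Against cDC2 they were higher by 1.35 ± 0.28 in the spleen (adjusted p = 0.00358) and differed by -0.06 ± 0.28 in the thymus (adjusted p = 0.957).

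**Figure D3:**
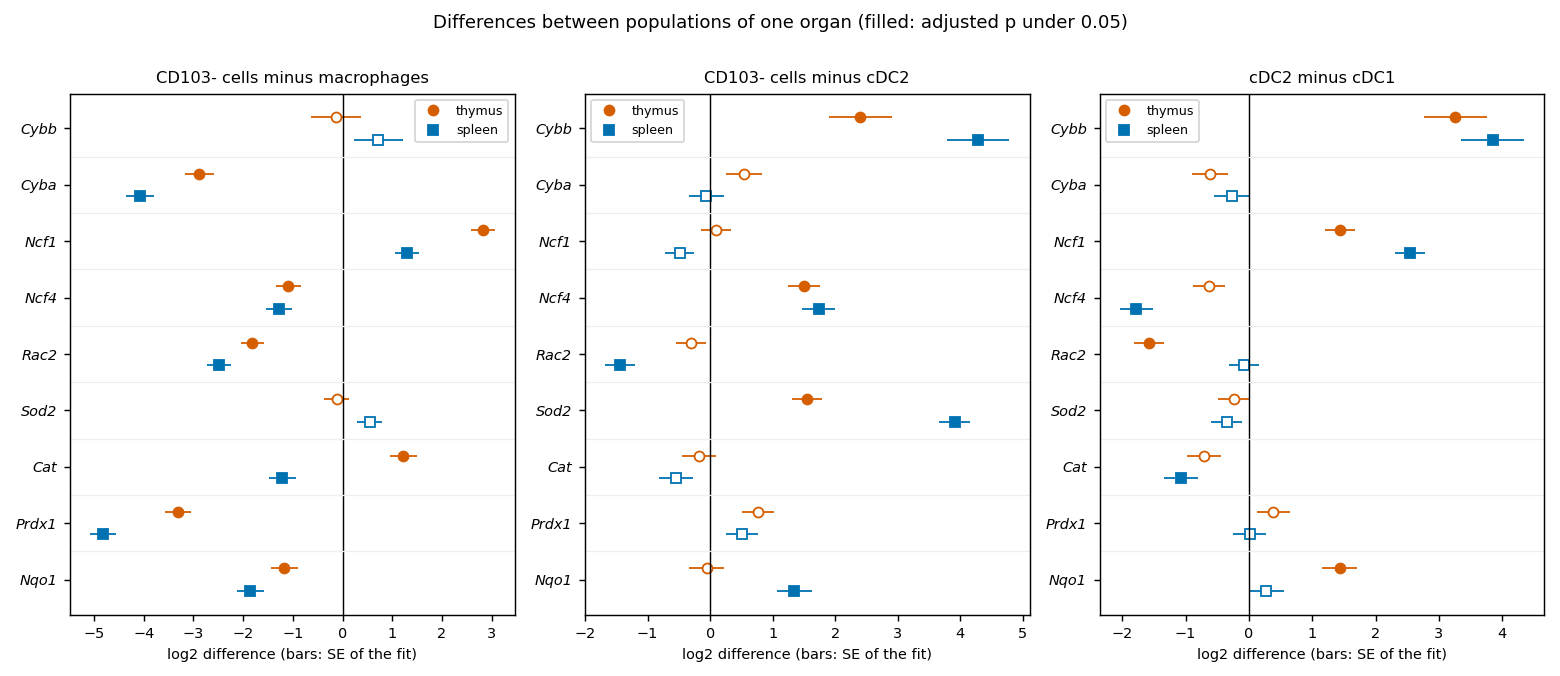
Log2 differences with the standard error of the fit for each of the 9 genes in 3 comparisons, thymus as circles and spleen as squares, filled where the adjusted p was under 0.05. Cyba, Prdx1, Rac2, Ncf4 and Nqo1 lie below 0 for CD103- cells minus macrophages in both organs. For CD103- cells minus cDC2, Cybb, Ncf4 and Sod2 lie above 0 and filled in both organs, and Prdx1 lies above 0 unfilled.

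The counts over the 9 genes stand beside the share of all 23188 clusters called in the same comparison. Thymic CD103- cells were higher than macrophages for 2 and lower for 5, where 37.9% of clusters were called (19.5% higher, 18.4% lower). Splenic CD103- cells were higher than macrophages for 1 and lower for 6 (40.2% of clusters, 21.1% higher and 19.1% lower). Against cDC2, thymic CD103- cells were higher for 3 and lower for 0 (10.3% of clusters, 5.34% higher and 4.91% lower). Splenic CD103- cells exceeded cDC2 for 4 and were lower for 1 (9.02% of clusters, 4.81% higher and 4.21% lower). Against cDC1, CD103- cells of the thymus were higher for 6 and lower for 2 (17.7% of clusters, 8.66% higher and 9.09% lower). Those of the spleen were higher for 4 and lower for 2 (18.1% of clusters, 8.63% higher and 9.47% lower). The 3 genes called higher against cDC2 in the thymus, Cybb, Ncf4 and Sod2, were also called in the spleen, together with Nqo1.

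Macrophages of the thymus exceeded cDC2 for 7 genes and were lower for 2 (42.9% of clusters, 20.3% higher and 22.6% lower). In the spleen they were higher for 7 and lower for 1 (42.5% of clusters, 19.8% higher and 22.8% lower). Against cDC1, thymic macrophages were higher for 6 and lower for 2 (43.7% of clusters, 20.4% higher and 23.3% lower). Splenic macrophages were higher for 8 and lower for 0 (43.2% of clusters, 19.7% higher and 23.5% lower), Cat being the gene not called. Of these calls, those of Ncf1 (1.69-fold) and Rac2 (1.96-fold) were lost with a log2 difference of at least 1. That of Ncf1 was also lost without either splenic macrophage array or the second splenic cDC1 array. Thymic cDC2 were higher than cDC1 for 3 and lower for 1 (13.7% of clusters, 6.75% higher and 6.93% lower), and splenic cDC2 were higher for 2 and lower for 2 (16.1% of clusters, 7.86% higher and 8.21% lower).

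Between the organs, Ncf1 was higher in the thymus in CD103- cells, cDC2 and cDC1. It was higher in the thymus by 1.99 ± 0.24 in CD103- cells, 1.41 ± 0.24 in cDC2 and 2.51 ± 0.24 in cDC1 (adjusted p = 1.36e-05, 0.000309 and 7.1e-07), and the 0.46 ± 0.24 in macrophages did not pass (adjusted p = 0.268). Thymocyte and T cell markers moved with organ in all 4 populations: of 10, 5 to 8 lay above background in thymic groups and 2 to 4 in splenic ones, with log2 summed signals of 11.23 to 13.26 and 8.94 to 9.44. Cd3g was below background in all 8 groups. B cell markers had a log2 summed signal of 13.70 to 13.75 in thymic and 11.76 to 11.77 in splenic cDC1. In the other populations that signal was lower in the thymus. Siglech, a plasmacytoid dendritic cell marker, averaged 5.08 and 9.01 in thymic and splenic CD103- cells, and 4.87 and 7.26 in cDC2. Of other markers of that cell, Spib and Tlr7 were called lower in the thymus in both. The differences were -2.045 and -2.015 in CD103- cells, and -1.71 and -2.685 in cDC2. Irf7 was called lower in CD103- cells (-1.36) but not in cDC2 (-0.555), and Tcf4 and Bst2 were not called in either. The part of all these transcripts in any organ difference was not tested. Sod2 went the other way from Ncf1, with thymic values lower by -2.21 ± 0.25 in CD103- cells and -1.55 ± 0.25 in macrophages (adjusted p = 6.84e-06 and 0.000213). In cDC2 and cDC1 it differed by 0.15 ± 0.25 and 0.04 ± 0.25, without passing (adjusted p = 0.8 and 0.959). Rac2 was lower in the thymus by -0.77 ± 0.24 in CD103- cells, -1.45 ± 0.24 in macrophages and -1.91 ± 0.24 in cDC2 (adjusted p = 0.0408, 0.000279 and 1.24e-05). The call of Rac2 in CD103- cells was lost without either thymic CD103-, thymic cDC2 or splenic macrophage array or the second splenic CD103- array, with values of -0.985 to -0.555 over the arrays left out. Cat was lower by -2.38 ± 0.27 in thymic macrophages (adjusted p = 5.55e-06), the group comparison in which Hbb also differed. Cybb was higher in the thymus by 1.70 ± 0.50 in cDC2 and 2.29 ± 0.50 in cDC1 (adjusted p = 0.0273 and 0.00408). The cDC2 call was lost without either thymic cDC2 array or the first splenic one, with values from 1.165 to 2.225. Without the first thymic or the first splenic cDC1 array, the cDC1 difference was 1.40 or 1.44 and did not pass (adjusted p = 0.104 and 0.0956).

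Over the 9 genes, thymic CD103- cells were higher than splenic ones for 3 and lower for 2 (12.4% of clusters called, 7.12% higher and 5.27% lower). Macrophages were higher for 0 and lower for 4 (13.7% of clusters, 6.21% higher and 7.53% lower). cDC2 were higher for 3 and lower for 1 (14.6% of clusters, 7.99% higher and 6.6% lower), and cDC1 were higher for 2 and lower for 1 (12.1% of clusters, 6.69% higher and 5.38% lower). Leaving out single arrays gave 2 to 5 calls in CD103- cells and 2 to 5 in cDC2. The other calls in CD103- cells were Cyba at 0.98 ± 0.28 and Prdx1 at 1.12 ± 0.26 (adjusted p = 0.0291 and 0.00653). That of Cyba was lost without either thymic CD103- array or the first splenic one (0.795 to 1.165), and that of Prdx1 without the second thymic or the second splenic CD103- array (0.91 to 1.33). Macrophage markers moved with both genes. Of 10, 9 lay above background in CD103- cells of each organ, with a log2 summed signal of 17.35 to 17.62 in the thymus and 15.06 to 15.49 in the spleen, and Marco below it. Their part in the Cyba and Prdx1 differences was not tested.

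Whether a difference between populations itself differed between the organs was tested for 3 pairs. For CD103- cells and cDC2, Sod2 was the 1 gene called, with the thymic difference lower, where 3.55% of clusters were called (1.43% higher, 2.12% lower). For CD103- cells and macrophages, Ncf1, Cat and Prdx1 were called higher (6.79% of clusters, 4.44% higher and 2.35% lower). For cDC2 and cDC1, Rac2 was called lower (6.2% of clusters, 3.16% higher and 3.04% lower). Organ and enrichment method cannot be told apart in the dendritic populations. In cDC2, the cDC1 genes Xcr1 and Clec9a averaged 4.83 and 5.88 in the thymus, against 9.30 and 9.46 in the spleen, and the 6 cDC1 markers summed to 12.39 to 12.43 and 13.27 to 13.62. Tlr3 and Cadm1 were also called lower in thymic cDC2, by -2.345 and -1.365. Batf3 and Irf8 differed by -0.03 and 0.33 and were not called. Their part in the cDC2 results was not tested.

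**Figure D4:**
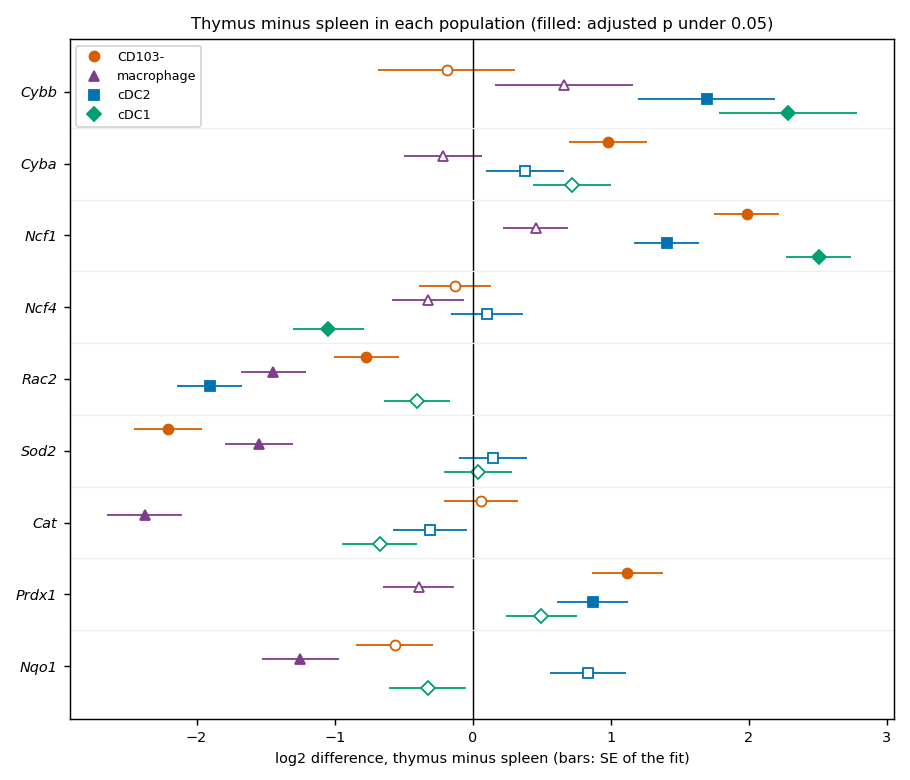
Log2 difference of thymus minus spleen, with the standard error of the fit, for each gene in each of the 4 populations, filled where the adjusted p was under 0.05. Ncf1 lies above 0 in all 4 populations and is filled in the dendritic ones, Sod2 lies below 0 in CD103- cells and macrophages, and Cat stands apart in macrophages.

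The order of the 8 group means described each gene further. For Cybb the first 3 groups, splenic CD103- cells (17.89), thymic macrophages (17.83) and thymic CD103- cells (17.70), were each within the sum of their SDs of their neighbour among these 3. For Sod2, splenic CD103- cells (15.90) and splenic macrophages (15.36) were within their spread, as were the last 4 groups, cDC1 and cDC2 of both organs, between 12.38 and 11.99. For Ncf1, thymic CD103- cells (15.61) and thymic cDC2 (15.52) were within their spread, and splenic cDC1 (11.57) lay last. For Prdx1, both macrophage groups (16.09 and 15.70) were followed by thymic CD103- cells at 12.39.

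The pathway around these genes was read from 4 lists with 53 genes, of which 51 were on the array. Against macrophages, the enzymes of superoxide and peroxide removal were lower in CD103- cells for 9 of 12 and higher for 0 in the thymus, and the same counts held in the spleen, where 18.4% and 19.1% of all clusters were called lower. Their median difference was -1.89 in the thymus and -2.85 in the spleen, beside medians of 0.10 and 0.16 over all clusters. The peroxiredoxin Prdx2 was lower by -4.18 ± 0.22 and -5.85 ± 0.22 (adjusted p = 1.55e-10 and 1.85e-12), and the lipid peroxide enzyme Gpx4 by -3.62 ± 0.22 and -3.99 ± 0.22 (adjusted p = 5.84e-10 and 2.12e-10). Extracellular Sod3 stood at 10.43 in splenic macrophages and below background in the other 7 groups.

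In the thioredoxin and glutathione list, thymic CD103- cells exceeded macrophages for 4 of 15 genes and were below them for 6, and 11 were lower and 3 higher in the spleen. The median differences were -0.33 and -1.50. Over all clusters 19.5% were called higher and 18.4% lower in the thymus, and 21.1% and 19.1% in the spleen, so the count of higher genes was near the general share. Slc7a11, the cystine importer that feeds glutathione synthesis, was higher by 6.08 ± 0.43 in the thymus and 2.75 ± 0.43 in the spleen (adjusted p = 3.91e-09 and 4.75e-05). Txnrd1, thioredoxin reductase, was higher by 1.79 ± 0.41 and 1.85 ± 0.41 (adjusted p = 0.00165 and 0.00127). Mgst1, a microsomal glutathione transferase, was lower by -5.80 ± 0.43 and -5.97 ± 0.43 (adjusted p = 5.94e-09 and 4.36e-09). In the Nrf2 list, CD103- cells exceeded macrophages for 3 of 14 genes in each organ and were below them for 8 in thymus and 10 in spleen. The list medians were -0.96 and -1.33, and the count of higher genes was near the same general share. The 3 genes, called higher in both organs, were Nfe2l2, which encodes Nrf2, by 1.34 ± 0.33 and 1.69 ± 0.33, its competitor Bach1 by 3.03 ± 0.23 and 2.13 ± 0.23, and the small Maf protein Maff by 2.15 ± 0.44 and 2.16 ± 0.44. Hmox1, haem oxygenase, was lower by -3.09 ± 0.33 and -5.47 ± 0.33 (adjusted p = 4.78e-07 and 5.2e-10).

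Against cDC2, the Nrf2 list had 6 of 14 genes called in thymic CD103- cells and 5 in splenic ones, each of them higher, where 5.34% and 4.81% of clusters were called higher, with medians of 0.77 and 0.74 beside -0.02 and -0.04 over all clusters. Hmox1 was higher by 2.86 ± 0.33 and 2.34 ± 0.33 (adjusted p = 7.54e-06 and 7.92e-05), and the pentose phosphate enzyme Tkt by 1.50 ± 0.23 and 1.89 ± 0.23 (adjusted p = 0.00017 and 1.46e-05). In the oxidase family list, 1 of 10 was higher and 0 lower in each organ, the proton channel Hvcn1, which balances the charge moved by the oxidase, a share near the 10.3% and 9.02% of clusters called in either direction. Hvcn1 was higher by 1.75 ± 0.33 in the thymus and 1.22 ± 0.33 in the spleen (adjusted p = 0.00156 and 0.0267). Of that list, 5 genes lay below background in all groups.

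**Figure D5:**
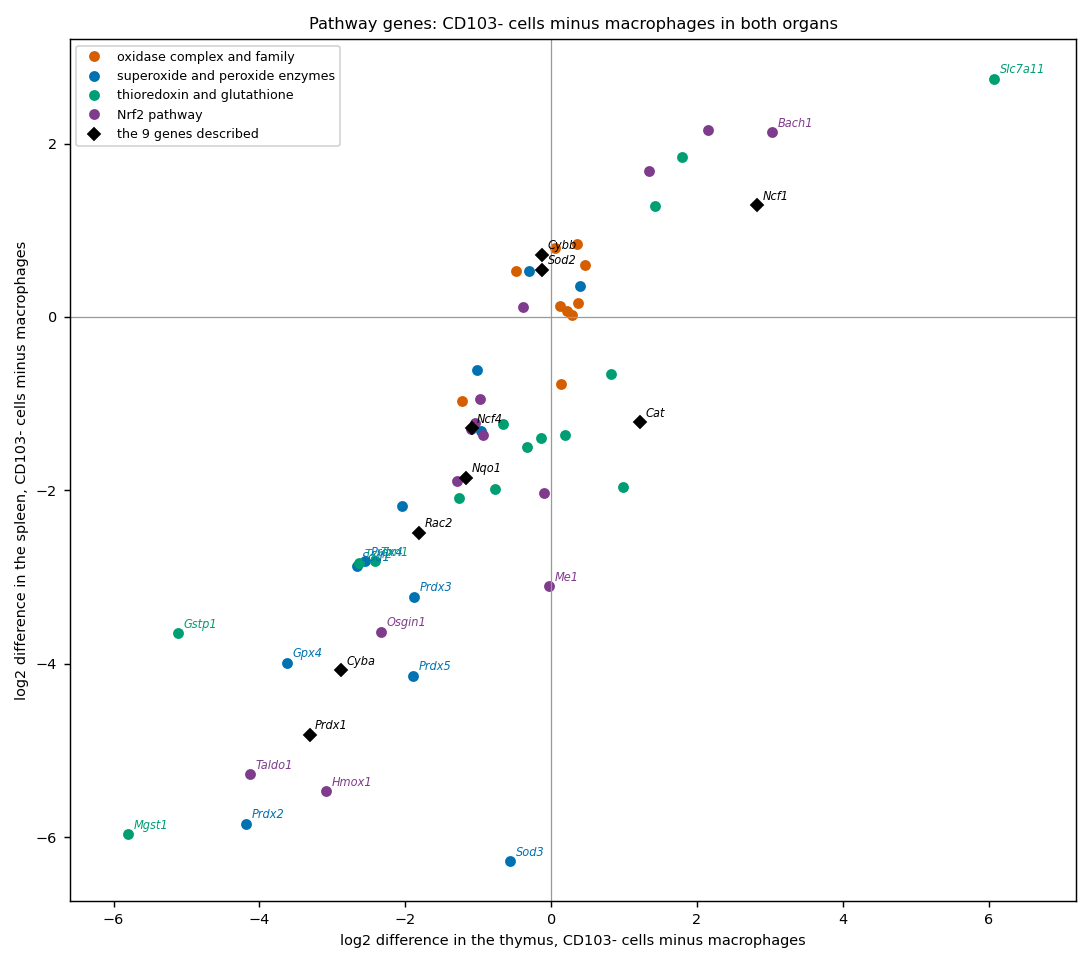
Log2 difference between CD103- cells and macrophages in the thymus (horizontal) and the spleen (vertical) for the 9 genes (black diamonds) and the 4 pathway lists (coloured circles). Prdx2, Gpx4, Mgst1 and Hmox1 lie low on both axes, whereas Slc7a11, Bach1, Maff and Txnrd1 lie high on both.

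The genes most like each member were ranked by Pearson's r over the 8 group means among 12002 clusters, as a description of groups that share arrays and preparation. For Cybb they included Zfand5 (0.98), Zeb2 (0.97) and Arrb2 (0.96). For Sod2 they were Ly6c (0.98), Nos2 (0.98), Lmo4 (0.98), Gbp2 (0.97) and Il10 (0.96). For Nqo1 they included Slc40a1 (0.96), the iron exporter, and Hmox1 (0.96). Ranking over the 16 arrays kept 3 of the 5 for Cybb, 4 for Sod2, 4 for Nqo1 and 0 for Cyba. Among the remaining members, the first gene was Psmd10 for Cyba, Slc17a5 for Ncf1, Shisa5 for Ncf4, Cd82 for Rac2 and Pdlim2 for Cat.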

How the data were processed

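The deposited log2 values of 16 arrays were made by the authors with the Transcriptome Analysis Console, per the submitters' processing notes. Its version, normalization and background correction are not given in the sources used here. Both deposited tables held the same values (largest difference 0), and array medians lay between 5.87 and 5.95. No scaling or filter was added.

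For the 23188 clusters, a linear model of the 8 groups took in every one of the 16 arrays, with limma 3.58.1 in R 4.3.3 (8 residual and 9.21 prior degrees of freedom). The two-sided moderated test gave p-values adjusted by Benjamini-Hochberg within each of 19 contrasts (12 between populations, 4 between organs, 3 interactions), called under 0.05. Differences carry the SE of the fit. A difference from a group below background (5.73) is given as the distance to it, and its p-value is that of the measured difference. The number of arrays limits the precision. The steps were tested on simulated data.

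The genes and the lists were chosen with earlier results of these data known. Named pathway genes are those called with the largest differences, up to 4 per direction and list; a few genes that these rules name are not reported here. Similar genes are the 5 with the highest r among clusters with 1 symbol and a range of at least 1. Alternatives were array weights, fewer arrays in the fit, a filter on dim clusters, 2 other normalizations, the replicate number as a block, another variance model, a minimum size and leaving out each array. A fit to the 12 dendritic arrays was added after the macrophage arrays' neutrophil and erythroid transcripts were seen.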

Additional observations from a re-analysis of the deposited data

Results flagged for a closer look

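In 5 cases a difference between populations itself differed between thymus and spleen by limma's interaction test, and no cause was tested. Sod2 differed between CD103- cells and cDC2 less in the thymus than in the spleen, by -2.36 ± 0.35 (adjusted p = 0.000463). For Cat, CD103- cells minus macrophages was 1.22 in the thymus and -1.22 in the spleen, opposite in sign, and the thymic minus the splenic difference was 2.44 ± 0.38 (adjusted p = 0.000532). For Ncf1 the same populations were 2.82 apart in the thymus and 1.29 in the spleen, so that the thymic difference was larger by 1.53 ± 0.33 (adjusted p = 0.00803). For Prdx1 it was -3.31 in the thymus and -4.82 in the spleen, so that CD103- cells lay less far below macrophages in the thymus, by 1.51 ± 0.36 (adjusted p = 0.0157), a call lost without the second thymic CD103- array, the second splenic CD103- array or the first splenic macrophage array. For Rac2, cDC2 minus cDC1 was -1.58 in the thymus and -0.08 in the spleen, a change of -1.50 ± 0.34 (adjusted p = 0.00911), a call lost without the second splenic cDC1 array or the first splenic cDC2 array. Over all clusters, 3.55% were called for the interaction of CD103- cells and cDC2, 6.79% for CD103- cells and macrophages, and 6.2% for cDC2 and cDC1. With 2 arrays a group, single arrays could not be checked for standing apart.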

How the results depend on the processing

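Of 171 differences of the 9 genes, 98 were called, 80 of these under every one of 25 alternative settings that covered them, and no called difference changed sign. The 18 lost calls included Cybb and Prdx1 between thymic and splenic cDC2, Cybb between thymic and splenic cDC1, and Cyba and Rac2 between thymic and splenic CD103- cells. The count for the interaction of CD103- cells and cDC2, 1 gene, became 3 with only the arrays compared, and 2 with the filter on dim clusters, quantile normalization, the trend and robust variance model or the 12 dendritic arrays. That of cDC2 and cDC1, 1 gene, became 2 with the filter, the replicate block, the variance model or the 12 dendritic arrays. The organ count of CD103- cells, 5, became 3 with a log2 difference of at least 1 or the 12 dendritic arrays. Leaving out each array gave 1 to 2, 0 to 2 and 2 to 5 for these counts, and 2 to 5 for the organ count of cDC2.

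Differences that changed sign were not called in the main analysis. Median centring gave -0.0125 for Prdx1 between splenic cDC2 and cDC1 and -0.015 for Sod2 between thymic and splenic cDC1. Quantile normalization gave 0.145 for Cybb and 0.0347 for Sod2 between thymic CD103- cells and macrophages. Without single arrays the ranges for CD103- cells against cDC1 were -0.175 to 0.035 (thymic Cyba), -0.895 to 0.235 (splenic Cyba) and -0.25 to 0.16 (splenic Ncf4). Against splenic cDC2, Cyba ranged from -0.245 to 0.125, and against thymic macrophages Sod2 ranged from -0.33 to 0.09. Rac2 in thymic macrophages minus cDC1 ranged from -0.22 to 0.08. In splenic cDC2 minus cDC1 the ranges were -0.835 to 0.295 (Cyba), -0.285 to 0.135 (Rac2), -0.39 to 0.41 (Prdx1) and -0.02 to 0.57 (Nqo1). In thymus minus spleen they were -0.1 to 0.18 (Sod2, cDC1), -0.23 to 0.44 (Ncf4, cDC2), -0.07 to 0.37 (Sod2, cDC2), -0.35 to 0.09 (Ncf4, CD103- cells) and -0.105 to 0.225 (Cat, CD103- cells). For the interaction of cDC2 and cDC1 they were -1.475 to 0.295 (Cybb), -0.11 to 0.33 (Sod2), -0.905 to 0.225 (Cyba) and -0.025 to 0.775 (Prdx1). For that of CD103- cells they were -0.15 to 0.65 (Prdx1) and -0.57 to 0.1 (Ncf4) with cDC2, and -0.025 to 0.415 (Ncf4) with macrophages. The causes were not tested.

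Over all clusters, 1520 to 1531 were called between thymic CD103- cells and cDC2 without either thymic cDC2 array or the second thymic CD103- array, against 2377 with all arrays. Between splenic CD103- cells and cDC2, 1388 were called without the second cDC2 array, against 2092. Between the organs, 1633 or 1836 were called in CD103- cells without the second thymic or the first splenic array (2873 with all), 2090 in macrophages without the second splenic array (3186) and 1736 in cDC1 without the second thymic array (2800). The interaction of CD103- cells and macrophages gave 1028 without the second splenic macrophage array, against 1575. The replicate block kept 98 of 98 calls and added 2. Deviations of the first replicates from their group means correlated by over 0.1 in 4 of 28 pairs of groups (-0.0677 to 0.182). Such values cannot show whether arrays with the same replicate number shared animals, pools or days. Averaging several clusters of a gene was not run, since each gene had 1 cluster.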
